A study of Sus scrofa with 32 samples.

Results

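Liver RNA of runt pig fetuses at gestational day 50 was compared with liver RNA of runt fetuses at gestational day 37, over 4 arrays of each day, so 8 of the 32 arrays measured. Members were chosen by their labels alone, and every probe that was not a control was read. The other 24 arrays hold runts at days 70 and 110 and control littermates at all 4 days, and the control fetuses at days 50 and 37, 4 of each, served as the reference course. All fetuses, controls included, came from artificially inseminated gilts with 1 uterine horn and ovary removed, and this surgical crowding of the uterus is the labels' basis for growth-retarded offspring. The labels give runt and control littermate pairs from 4 pregnancies at each day, so the days hold different animals. RNA came from individual liver specimens, and the sex of the fetuses is not used here.

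The fetal liver does several jobs at once. It is an early site of blood formation, holding red cell, granulocyte and lymphocyte precursors beside the hepatoblasts. Hepatoblasts divide, secrete plasma proteins such as alpha-fetoprotein and albumin, and give rise both to hepatocytes and to the epithelium of the bile ducts. Growth of the fetus depends in part on insulin-like growth factors (IGFs) and on the binding proteins that hold them in blood. In whole tissue, fewer cells of a type and less RNA per cell cannot be told apart.

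Levels are given as the log2 of a spot's processed signal minus the 75th percentile of its array, so that 0 is the signal at that percentile. A change is day 50 minus day 37 on that scale, from a limma fit of all 8 groups. A feature passed at a Benjamini-Hochberg adjusted p under 0.05 over 28673 features and a change of at least 2-fold. The labelled tissue showed its defining genes, the secreted proteins of hepatocytes. AFP, alpha-fetoprotein, averaged 9.87 ± 0.75 at day 50 and 9.55 ± 0.21 at day 37 in runts (SD, n = 4 each). Between 59.9% and 65.5% of spots were well above background on the day 50 runt arrays, against 55.1% to 59.6% on the day 37 runt arrays. No spot was saturated, and the 4 arrays per group limit the precision.

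2 arrays stood apart. Day 50 runt replicate 1 was the lone array of slide 9 and of the second scan, and its negative control spots lay at -4 intensity units over local background, against 9.5 to 30 on the other 31 arrays. Day 37 runt replicate 1 lay at -0.71 on the principal component that parted the 2 days of runts (33.7% of variance), where the other day 37 runts lay between -75.6 and -50.0 and the day 50 runts between 39.8 and 54.0. The day 37 runts were all at array position 1 and the day 50 runts at position 2, except replicate 1 of day 50 at position 1. Apart from that array, day and position cannot be told apart.

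At day 50 runt livers held more RNA of the binding protein IGFBP2, of the epithelial adhesion genes EPCAM and CDH1 and of vitronectin than at day 37. They held less RNA of the receptor genes KLRK1 and CD247, of complement factors C2 and C4A and of cyclin D3. In the lymphocyte list that holds KLRK1 and CD247, 10 of 15 genes lay above 0 and VPREB1 passed as higher. Its T cell genes CD2, CD3G and CD4 were at background on every runt array, so these signs do not show how the list moved as a group. Counted over every feature, 1672 (5.83%) passed, of which 1430 (4.99%) were higher in day 50 runts and 242 (0.844%) were lower. Without day 50 runt replicate 1 the count was 1554, without day 37 runt replicate 1 it was 2132, and without both it was 2033. The lower features moved more, with 402 without day 37 runt replicate 1 and 156 without day 37 runt replicate 3. With slide as a random block it was 1812. Within slides 4 to 9, which hold 2 day 37 and 3 day 50 runts, 295 passed. Within slides 1 to 3, which hold 2 day 37 runts and 1 day 50 runt, 0 passed in limma, and 4390 had an unadjusted p under 0.05. Most features carry no gene symbol. Of the 1596 with a symbol 62 (3.88%) passed, 30 (1.88%) higher and 32 (2.01%) lower. The median change of all 1596 was -0.13, and 38.3% of them lay above 0, against 48.6% of all features, which is the background for the counts above and below 0 in the gene lists. The days did not overlap, with day 50 higher, in 10.6% of all features and 3.88% of those with a symbol. With day 50 lower the shares were 6.14% and 8.96%. Over all features the median change was -0.02. Of the 1430 that were higher, 461 were well above background on 0 of 4 day 37 arrays and 627 on all 4. Of the 242 that were lower, 26 were well above background on 0 of 4 day 50 arrays and 169 on all 4. Background correction with normexp gave 1202 features, of which 43.8% were higher against 85.5% in the counts above. With normexp IGFBP2, KLRK1 and CCND3 kept the call, while EPCAM, CDH1, VTN, CD247, C2, C4A and VPREB1 lost it. Under that correction the negative control spots themselves lay 1.01 higher at day 50, against a change of -0.38 in the values used here. The part of either shift in the calls was not tested.

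**Figure D1:**
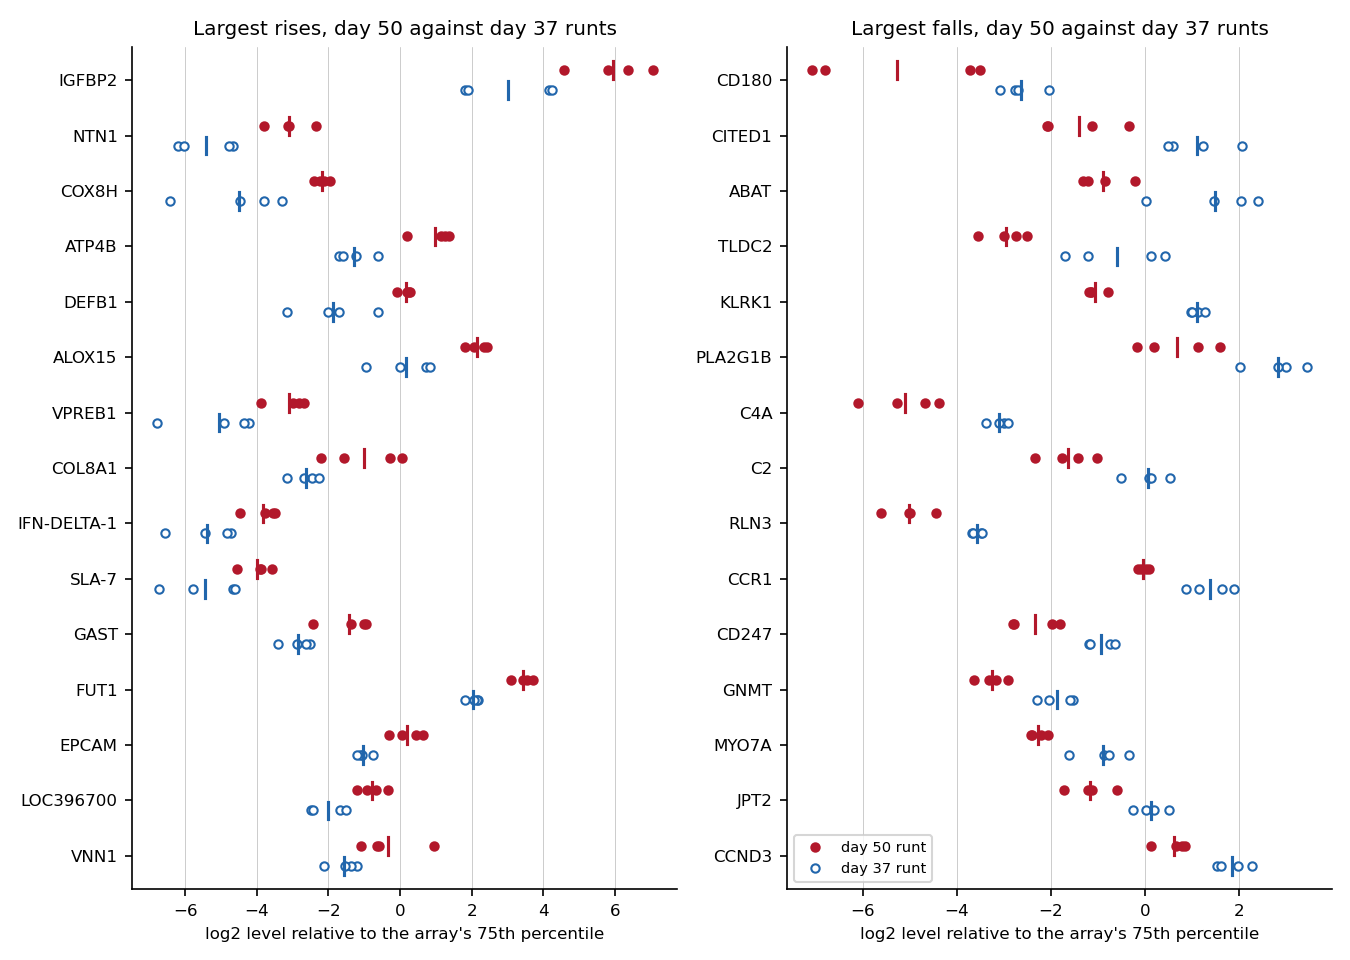
Log2 level of each runt array relative to its 75th percentile, for the 15 largest rises (left) and 15 largest falls (right) among genes that passed with no overlap between days. Filled points are the 4 day 50 runts, open points below them the 4 day 37 runts, and upright bars the means. IGFBP2 at the top left lies between 4.59 and 7.05 at day 50 and between 1.81 and 4.24 at day 37.

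Among genes with a symbol the largest rise was in IGFBP2 (NM_214003), a secreted binding protein for IGFs. Its level was 7.05, 5.79, 4.59 and 6.37 in day 50 runts, against 4.15, 1.81, 1.91 and 4.24 in day 37 runts. Every day 50 runt lay above every day 37 runt, although the day 37 runts fell into a pair near 4 and a pair near 2. The change was 2.93 (SE 0.46, 7.60-fold, limma adjusted p = 0.000194). It was 2.83 within slides 4 to 9 (adjusted p = 0.0485) and 3.30 within slides 1 to 3 (adjusted p = 0.227).

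The IGF and growth hormone list had 14 tested genes, of which 1 passed higher (IGFBP2), 0 passed lower, and the median was 0.12. The growth factors themselves did not pass. IGF2, the main fetal IGF, was at 0.18 (SE 0.20, limma adjusted p = 0.584), and IGF1, the postnatal growth mediator, at 0.06 (SE 0.24, adjusted p = 0.906). GHR, the growth hormone receptor, was at 0.40 (adjusted p = 0.388) and IGFBP3, the main carrier of IGFs in adult blood, at 0.48 (adjusted p = 0.145). STAT5A, a transcription factor downstream of growth hormone, was at -0.61 (adjusted p = 0.0564). Among genes high in fetal liver, DLK1, a membrane protein of hepatoblasts, was at -0.80 (adjusted p = 0.0933), and at -1.05 without day 37 runt replicate 2 (adjusted p = 0.0434). Another probe of DLK1 gave -0.17. PEG10, an imprinted gene, was at 0.58 (adjusted p = 0.0122, under 2-fold).

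Of 24 plasma protein genes 1 passed higher, 0 passed lower and 17 lay above 0, with a median of 0.19. VTN, vitronectin, an adhesion protein of plasma, reached 8.32, 7.57, 7.84 and 7.72 in day 50 runts, against 7.02, 6.79, 6.95 and 6.52 in day 37 runts. The groups did not overlap, and the change was 1.04 (SE 0.15, limma adjusted p = 9.8e-05; 1.01 within slides 4 to 9 and 0.98 within slides 1 to 3). Another probe of VTN gave 0.61, under 2-fold. VTN was near the fold threshold, at 0.94 without day 37 runt replicate 4 and at 0.89 without day 50 runt replicate 1. ALB, serum albumin, had 4.43, 3.47, 5.85 and 5.65 in day 50 runts, against 3.56, 4.56, 5.04 and 1.56 in day 37 runts. The days overlapped, and its change of 1.17 had an SE of 0.59 (adjusted p = 0.184). AFP was at 0.32 (adjusted p = 0.514), TTR, the thyroid hormone carrier transthyretin, at 0.27 and TF, transferrin, at -0.12. Of 2 inter-alpha-trypsin inhibitor chains past the adjusted p but under 2-fold, ITIH2 was at 0.62 (adjusted p = 0.0131) and ITIH4 at -0.80 (adjusted p = 0.0285). Of 12 apolipoprotein and lipid export genes none passed in limma (3 at an unadjusted p under 0.05). The member with the smallest p there was APOC3, an inhibitor of triglyceride clearance, at 0.92 (adjusted p = 0.00234).

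Complement genes, whose products mark microbes and are made largely by hepatocytes, held 3 that fell among 20 tested and 0 that rose, with 15 of 20 below 0 and a median of -0.19. C2 (a protease of the classical and lectin pathways) had -1.43, -2.34, -1.02 and -1.76 in day 50 runts, against 0.54, 0.09, 0.12 and -0.50 in day 37 runts. All day 50 runts were lower, with a change of -1.70 (SE 0.36, 3.25-fold, limma adjusted p = 0.00256). C4A, the protein that C2 binds on activated surfaces, had -5.26, -6.10, -4.67 and -4.37 in day 50 runts, against -3.0, -3.37, -2.90 and -3.10 in day 37 runts. It changed by -2.01 (SE 0.40, adjusted p = 0.00151). At day 50 its spot stood clear of background on 2 of 4 arrays, against 4 of 4 at day 37. MASP2, the lectin pathway protease that cleaves both, averaged -4.35 ± 0.54 in day 50 runts and -2.84 ± 0.77 in day 37 runts (SD, n = 4 each; change -1.51, adjusted p = 0.00428). Its groups overlapped through replicate 3 of each day, and 2 of the 4 day 50 spots stood clear of background. Within slides 4 to 9 the changes were -1.91 for C2 (adjusted p = 0.0714), -2.16 for C4A (0.0583) and -1.80 for MASP2 (0.0517), and within slides 1 to 3 they were -1.57, -1.37 and -1.03. The central component C3 was at -0.21 (adjusted p = 0.794), C5 at -0.06 and the alternative pathway protease CFB at -0.01. With normexp C4A was at 0.47 and MASP2 at 0.35, where the median of all features was 0.34. Among other genes that passed as lower at day 50, 5 had changes above 0 with normexp, CD180 (0.17), GNMT (0.27), RLN3 (0.61), COL5A3 (0.68) and CYP8B1 (0.70).

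C2 and C4A lie near each other on chromosome 7 in the annotation, in the stretch of the major histocompatibility complex that holds complement genes. The genes CFB, NELFE, SKIV2L, DXO and STK19 lie between C2 and C4A. In a window from 20 genes before to 20 genes after the pair, 17 of 47 genes were tested. Of these 3 fell and 0 rose. Beside C2 and C4A this was SLC44A4, a choline transporter of epithelia, which had -0.48, -0.52, -0.79 and -0.51 in day 50 runts, against 0.82, -0.09, 0.58 and 1.08 in day 37 runts (change -1.17, SE 0.28, limma adjusted p = 0.00622). CFB lies between C2 and C4A and was at -0.01, and CYP21A2, the steroid hydroxylase next to C4A, was at 0.12 (adjusted p = 0.927). DXO, an RNA decapping enzyme in the same stretch, was at -0.71 (adjusted p = 0.0168, under 2-fold). The window was set by C2 and C4A after their falls had been seen, so their part of the count was fixed in advance. Of the 17 tested genes 11 lay below 0, beside 984 of the 1596 genes with a symbol. Of all genes with a symbol 2.01% passed as lower.

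The lymphocyte list had 15 tested genes, of which 1 rose, 2 fell and 12 did not pass (median 0.19). KLRK1, the activating receptor NKG2D of natural killer and cytotoxic T cells, had the smallest adjusted p of the genes with a symbol that fell. Its level was -1.15, -1.14, -0.78 and -1.18 in day 50 runts, against 0.97, 1.13, 1.01 and 1.27 in day 37 runts. The 2 days lay far apart and each was tight, with a change of -2.16 (SE 0.27, 4.47-fold, limma adjusted p = 2.44e-05; -2.08 within slides 4 to 9 and -2.32 within slides 1 to 3). CD247, the signalling zeta chain of the T cell receptor, averaged -2.34 ± 0.52 in day 50 runts and -0.94 ± 0.29 in day 37 runts (SD, n = 4 each; adjusted p = 0.00509), and another probe of it gave -1.40. The defining T cell genes CD2, CD3G and CD4 were above background on 0 of 8 runt arrays, and CD3E and CD8A on 1 each, and the part of T cell number in these falls was not tested. VPREB1, the surrogate light chain of the pre-B cell receptor, was well above background on all 4 day 50 arrays and on 0 of 4 day 37 arrays. It had -2.68, -2.83, -3.89 and -3.0 in day 50 runts, against -4.22, -4.92, -4.35 and -6.79 in day 37 runts, at least 2.52-fold higher (adjusted p = 0.00497). CD79A, a chain of the B cell receptor, was at 1.01 (adjusted p = 0.0544).

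Of 12 granulocyte genes 1 rose, 0 fell and 10 lay above 0, with the highest median of any list, 0.73. The 1 was DEFB1, beta-defensin 1, an antimicrobial peptide made mostly by epithelia, at 0.28, 0.19, -0.09 and 0.25 in day 50 runts, against -2.02, -1.70, -3.16 and -0.61 in day 37 runts. The groups were apart and the change was 2.03 (SE 0.62, limma adjusted p = 0.0260). DEFB1 lost the call without day 37 runt replicate 3 (adjusted p = 0.118) and without day 50 runt replicate 1 (0.0534), 2 (0.0539) or 4 (0.0564). The neutrophil peptide PR39 was at 1.26 (adjusted p = 0.0800), the peptidoglycan binder PGLYRP1 at 1.51 (0.0775) and lactoferrin, LTF, at 1.08 (0.234). Of 23 Kupffer cell and monocyte genes none passed in limma (3 at an unadjusted p under 0.05). The smallest p there belonged to CTSD, a lysosomal protease, at -0.52 (adjusted p = 0.0160, under 2-fold). Outside the lists the immune genes CCR1, MYD88, IRF3 and CD180 were lower at day 50, while IFN-DELTA-1 and SLA-7, given further below, were higher. MYD88 and IRF3 are given after their values were seen. CCR1, a chemokine receptor of myeloid cells, stood at -0.09, 0.02, -0.15 and 0.08 in day 50 runts, against 0.88, 1.64, 1.89 and 1.14 in day 37 runts (change -1.42, SE 0.24, adjusted p = 0.000422). MYD88, the adaptor of Toll-like receptors, changed by -1.68 (adjusted p = 0.00118) and IRF3, a transcription factor of the interferon response, by -1.04 (adjusted p = 0.000194). CD180, a Toll-like receptor relative of B cells and macrophages, split into 2 pairs at day 50, with -6.81 and -7.08 in replicates 1 and 4 and -3.51 and -3.71 in replicates 2 and 3, against -2.77, -2.69, -2.04 and -3.08 in day 37 runts. Replicates 1 and 4 lay at the level of their arrays' negative control spots (-6.66 and -7.00), so the size of the change is set by that floor. The call (adjusted p = 0.0175) was lost without day 37 runt replicate 3 (adjusted p = 0.0590) and without day 50 runt replicate 1 (0.0702) or 4 (0.0799).

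All 11 cell cycle genes tested lay below 0, with a median of -0.59 against -0.13 over genes with a symbol, and 1 passed. That was CCND3, cyclin D3, which drives entry into the division cycle in blood cells. It had 0.85, 0.66, 0.80 and 0.13 in day 50 runts, against 1.53, 2.28, 1.97 and 1.62 in day 37 runts. Every day 50 runt was below every day 37 runt (change -1.24, SE 0.19, 2.37-fold, limma adjusted p = 0.000179; -1.14 within slides 4 to 9 and -1.67 within slides 1 to 3). AURKA, a kinase of the spindle poles, was at -0.80 (adjusted p = 0.0221, under 2-fold) and CCNB1, cyclin B1, at -0.68 (0.0445, under 2-fold). CDK1, the mitotic kinase, was at -0.55 (0.112) and TOP2A, which untangles chromosomes, at -0.31 (0.302). All 5 erythroid genes lay below 0 (median -0.52) and none passed in limma (2 at an unadjusted p under 0.05). HBE1, embryonic epsilon globin, had 3.81, 3.91, 4.06 and 3.92 in day 50 runts, against 4.42, 4.82, 5.49 and 4.86 in day 37 runts. The groups did not overlap, but the change of -0.97 missed both thresholds (SE 0.34, adjusted p = 0.0529), and without day 37 runt replicate 1 it was -1.13 (adjusted p = 0.0301). TFRC, the transferrin receptor, was at -0.59 (0.182). The part of red cell number in any other change was not tested.

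All 7 glycolysis genes lay below 0, with a median of -0.68, and none passed in limma (5 at an unadjusted p under 0.05). GPI, which turns glucose phosphate into fructose phosphate, stood at -0.73 (adjusted p = 0.00804), PFKM, the muscle form of phosphofructokinase, at -0.69 (0.00614) and LDHB, a lactate dehydrogenase chain, at -0.52 (0.0207), each under 2-fold. LDHA, the other chain, had 5.13, 5.26, 5.21 and 5.25 in day 50 runts, against 4.93, 6.11, 6.11 and 6.50 in day 37 runts (adjusted p = 0.0656). Only replicate 1 of day 37 lay low, and without it LDHA was at -1.03 (adjusted p = 0.00266). Of 24 ribosomal protein genes 21 lay above 0 (median 0.17), and 0 passed in limma, with 0 at an unadjusted p under 0.05. FMO1, a flavin monooxygenase that oxidises drugs in fetal and adult tissue, had 5.98, 6.32, 6.63 and 6.51 in day 50 runts, against 7.03, 7.41, 7.59 and 7.55 in day 37 runts. It fell by 1.03 (SE 0.17, adjusted p = 0.000372), and stood at -0.91, under 2-fold, without day 50 runt replicate 1. It was at -0.97 without day 37 runt replicate 3 and at -0.98 without replicate 4. CYP2C49, a cytochrome P450, had -4.23, -0.48, 0.33 and -0.35 in day 50 runts, against -2.87, -6.37, -2.33 and -3.90 in day 37 runts. The days overlapped, the change of 2.69 passed (adjusted p = 0.0403), and it lost the call without 5 of the 8 arrays in turn. Those were day 37 runt replicate 2 (adjusted p = 0.179) and 4 (0.0815) and day 50 runt replicate 2 (0.103), 3 (0.123) and 4 (0.106). These were the 2 that passed of 28 xenobiotic genes. GNMT, which methylates glycine and uses up methyl groups, averaged -3.25 ± 0.31 in day 50 runts and -1.86 ± 0.36 in day 37 runts (SD, n = 4 each; adjusted p = 0.0194). It missed without day 37 runt replicate 3 (0.0640) or 4 (0.0582) or day 50 runt replicate 2 (0.0594). NAGS, which makes the activator of the urea cycle, was at -0.78 (adjusted p = 0.000541, under 2-fold), and another probe of it gave -1.10, past 2-fold.

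Of 8 bile duct genes 3 rose and 0 fell, the most rises of any list (median 0.21). EPCAM, an adhesion molecule of epithelia and liver progenitors, had 0.04, 0.45, -0.31 and 0.64 in day 50 runts, against -1.13, -1.08, -1.19 and -0.77 in day 37 runts. The groups were apart, with a change of 1.25 (SE 0.25, limma adjusted p = 0.00155; 1.16 within slides 4 to 9, adjusted p = 0.117, and 1.62 within slides 1 to 3). Other probes of EPCAM gave 1.24 and 1.33. CDH1, E-cadherin, had 2.52, 1.97, 2.34 and 2.49 in day 50 runts, against 1.17, 2.05, 1.33 and -0.28 in day 37 runts (change 1.26, adjusted p = 0.00526). Replicate 4 of day 37 was low, and without it CDH1 was at 0.82, under 2-fold. CDH1 was at 0.67 within slides 4 to 9 (adjusted p = 0.263) and at 1.97 within slides 1 to 3 (0.253), and another probe of it gave 0.87. SOX9, a transcription factor of the ductal plate, averaged -4.61 ± 0.57 at day 50, well above background on 2 of 4 arrays, and -6.13 ± 0.44 at day 37, on 0 of 4 (SD, n = 4 each; adjusted p = 0.0108). Its change was 1.45 within slides 4 to 9 (limma adjusted p = 0.185). EPCAM, CDH1 and SOX9 all lost the call with normexp. The members that did not pass ran the other way in part. SPP1, osteopontin, was at -1.36 (0.0557), and GGT1, a gamma-glutamyl transferase, at -0.76 (0.0504). CFTR, a chloride channel, was not above background on any runt array of either day. E-cadherin and EPCAM are also made by hepatoblasts and other epithelia.

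Stellate cell and fibroblast genes moved both ways, with 2 higher and 1 lower of 16 tested (median 0.14). NTN1, the guidance cue netrin-1, had -3.14, -3.11, -3.80 and -2.35 in day 50 runts, against -4.67, -4.79, -6.20 and -6.03 in day 37 runts. It was well above background on all 4 day 50 arrays and on 0 of 4 day 37 arrays, at least 2.63-fold higher (limma adjusted p = 0.00328). RGS5, a marker of pericytes, averaged -3.96 ± 0.44 at day 50 and -5.37 ± 0.97 at day 37 (SD, n = 4 each; adjusted p = 0.0283). It missed without day 37 runt replicate 2 (0.105) or 3 (0.124) or day 50 runt replicate 2 (0.0537) or 4 (0.0930). COL5A3, a fibrillar collagen chain, was above background on 0 of 4 day 50 arrays and 2 of 4 day 37 arrays, at least 1.93-fold lower at day 50 (adjusted p = 0.0368). It missed without day 37 runt replicate 2 (0.168) or 4 (0.0590) or day 50 runt replicate 2 (0.0782), 3 (0.0994) or 4 (0.0830). Of 16 endothelial genes 13 lay above 0 (median 0.10) and none passed in limma (4 at an unadjusted p under 0.05). PECAM1, an endothelial junction protein, was at 0.56 (0.0329, under 2-fold), but another probe of it gave -0.07. ENG, endoglin, was at 0.42 (0.0548) and NOS3, endothelial nitric oxide synthase, at 0.44 (0.0645).

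The other large falls were spread over unrelated roles. CITED1, a transcriptional coregulator of early organs, had -2.06, -1.12, -0.35 and -2.07 in day 50 runts, against 0.60, 1.23, 2.07 and 0.49 in day 37 runts (change -2.50, SE 0.43, 5.65-fold, limma adjusted p = 0.000405). ABAT, which breaks down the transmitter GABA, changed by -2.38 (adjusted p = 0.000355) and TLDC2 by -2.35 (0.00116). MYO7A, an unconventional myosin, changed by -1.37 (0.00171) and JPT2 by -1.28 (0.000785). The peptide hormone RLN3 was above background on 0 of 4 day 50 arrays and 4 of 4 day 37 arrays, at least 2.32-fold lower (0.0246). It missed without day 37 runt replicate 2 (0.0559), 3 (0.0627) or 4 (0.0503) or day 50 runt replicate 2 (0.0831).

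PLA2G1B, the pancreatic phospholipase A2, had 1.13, -0.17, 1.60 and 0.19 in day 50 runts, against 2.02, 2.99, 3.45 and 2.82 in day 37 runts (change -2.13, SE 0.49, limma adjusted p = 0.00497). The 6 other pancreas genes tested did not pass. Among them the enzyme genes AMY2 (-0.03), CLPS (0.06) and CELA2A (-0.06) were above background on all 8 runt arrays. Of the large rises, ATP4B, a chain of the gastric proton pump, had 0.19, 1.14, 1.26 and 1.35 in day 50 runts, against -1.24, -1.70, -1.60 and -0.61 in day 37 runts (change 2.28, SE 0.62, adjusted p = 0.0142). GAST, the stomach hormone gastrin, changed by 1.42 (0.00903). The part of tissue from neighbouring organs in these changes was not tested. FUT1, a fucosyltransferase that makes blood group H antigen, had 3.53, 3.43, 3.11 and 3.70 in day 50 runts, against 2.16, 2.14, 1.81 and 2.07 in day 37 runts (change 1.40, SE 0.25, adjusted p = 0.000596). Within slides 4 to 9 the changes were 2.33 for ATP4B (limma adjusted p = 0.162), 1.24 for GAST (0.133) and 1.20 for FUT1 (0.0746). GAST and FUT1 also lost the call with normexp.

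Each of the remaining large rises lost the call in at least 1 fit that left out 1 runt array. ALOX15, a lipoxygenase, changed by 2.00 (adjusted p = 0.0155, and 0.0739 without day 37 runt replicate 3), and COX8H, a respiratory chain subunit of heart and muscle, by 2.32 (0.0212, and 0.115 without that array). The anonymous locus LOC396700 changed by 1.24 (0.0117, and 0.0527 without the same array). VNN1, a pantetheinase, changed by 1.22 (0.0130), which was 0.78 without day 50 runt replicate 1 (0.0640) and 1.03 without day 37 runt replicate 4 (0.0585). COL8A1, a short-chain collagen, changed by 1.64 (0.0395), with an adjusted p between 0.0600 and 0.144 without day 37 runt replicate 2, 3 or 4 or day 50 runt replicate 2 or 3. Neither IFN-DELTA-1, an interferon of pig trophoblast (at least 1.60-fold, 0.0241), nor SLA-7, a class I antigen gene (at least 1.40-fold, 0.0424), was above background at day 37. Both lost the call without day 37 runt replicate 3 or 4 or day 50 runt replicate 1, 2 or 3, at adjusted p from 0.0519 to 0.115 for IFN-DELTA-1 and from 0.0782 to 0.186 for SLA-7.

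**Figure D2:**
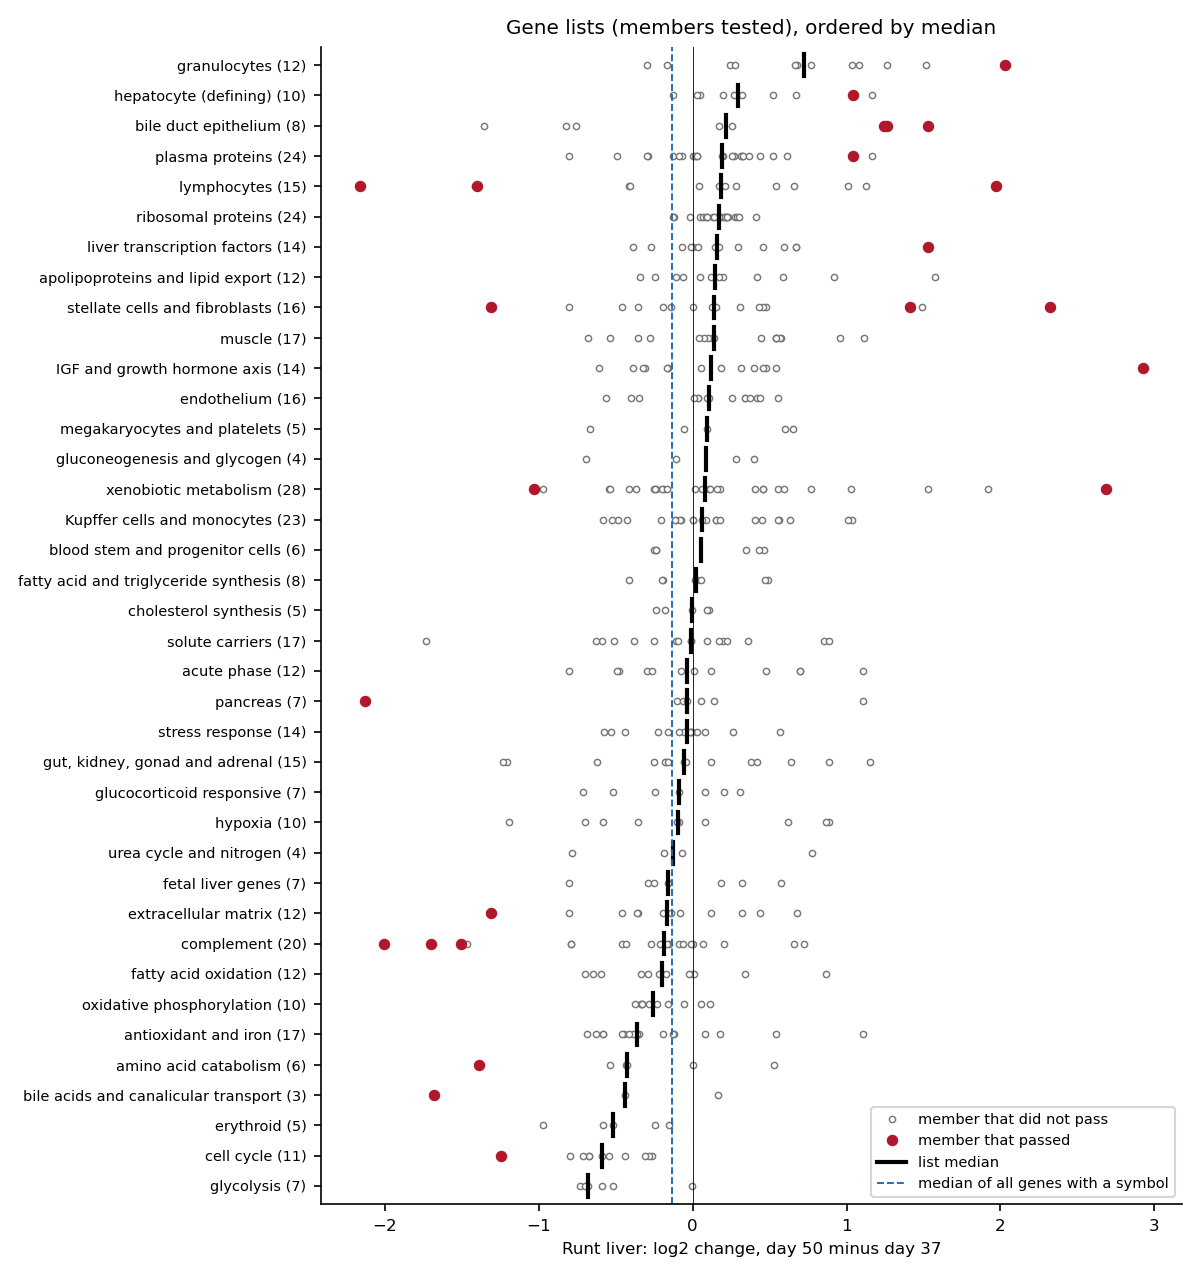
Log2 change from day 37 to day 50 in runt liver for every tested member of 38 gene lists, ordered by list median (upright bars), with the number tested in brackets. Filled points passed both thresholds and open points did not, and the dashed line is the median of -0.13 over genes with a symbol. Granulocyte genes have the highest median and glycolysis the lowest, and lymphocyte genes hold calls at both ends.

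Of 38 lists with 404 tested genes, 21 genes passed, beside 5.83% of all features and 3.88% of those with a symbol, so the lists held calls at about the background rate. They also include CYP8B1, an enzyme of bile acid synthesis, at least 1.55-fold lower at day 50 (limma adjusted p = 0.0435). It missed without day 37 runt replicate 2 (0.0854), 3 (0.127) or 4 (0.0606) or day 50 runt replicate 2 (0.135) or 4 (0.159). CYP7A1, the first enzyme of that pathway, was not above background on any runt array of either day. In 23 lists with 242 tested genes none passed in limma, and 52 had an unadjusted p under 0.05, 16 higher and 36 lower. Beside those already given these were acute phase, fetal liver, urea cycle, gluconeogenesis, cholesterol synthesis, glucocorticoid, fatty acid synthesis and oxidation, hypoxia, stress, antioxidant, oxidative phosphorylation, solute carrier, blood progenitor, platelet, muscle and other-organ genes. HAMP, the iron hormone hepcidin, was at 1.11 (0.131) and HMOX1, which degrades haem, at -0.58 (0.0874).

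The control course asks whether the same shift occurs in control littermates. All 4 control arrays of day 37 were at array position 1 and all 4 of day 50 at position 2. Apart from day 50 runt replicate 1, the runt arrays had the same split. The part of array position in the agreement between the courses was not tested. In controls 980 features (3.42%) passed, 889 (3.1%) higher and 91 (0.317%) lower. Of the features that rose, 672 passed in both courses, 47.0% of the runt calls and 75.6% of the control calls. Of those that fell, 58 did, 24.0% and 63.7%. With a symbol 29 (1.82%) passed in controls, 21 (1.32%) higher and 8 (0.501%) lower. All 62 symbol genes called in runts had the same sign in controls, and 15 also passed there. The runt change was the larger in 54 of the 62, and the control change was the larger in 20 of the 29 called in controls. Each of these sets was chosen on its own course. Several gene lists leaned the same way in controls. Below 0 in controls were 9 of 11 cell cycle genes (median -0.40), 6 of 7 glycolysis genes (-0.52) and all 5 erythroid genes (-0.13). All 12 granulocyte genes lay above 0 (0.83). Of 20 complement genes 10 lay below 0 in controls (median 0.08), against 15 in runts. The control median over genes with a symbol was -0.06.

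**Figure D3:**
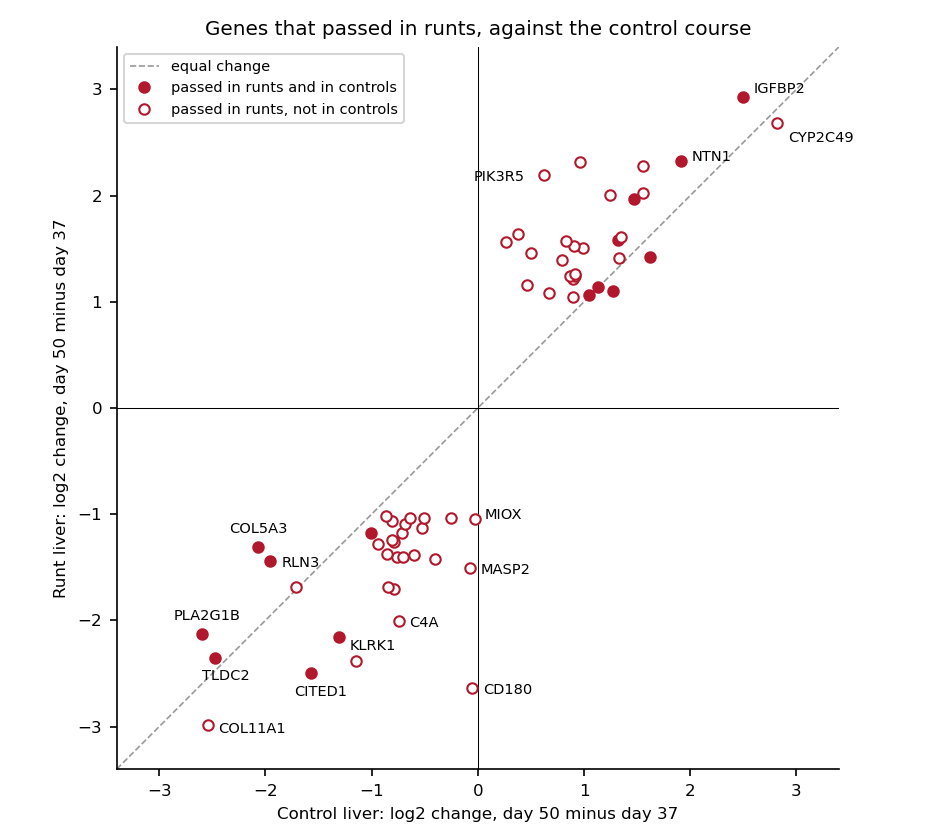
Log2 change from day 37 to day 50 in runt liver (vertical axis) against control liver (horizontal axis) for the 62 named genes that passed in runts. Filled points also passed in controls (15 genes), and the dashed line marks equal change. All points lie in the 2 quadrants of shared sign, with CD180, MASP2 and MIOX near 0 in controls.

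The difference between the courses was tested directly. Over all features 1 (0.00349%) passed at an adjusted p under 0.05, and 507 (1.77%) had an unadjusted p under 0.05. That second count was 1031 without day 37 runt replicate 1, 809 without day 50 runt replicate 3, 868 without both arrays that stood apart and 914 with litter as a random block, and the first was 1 with the litter block. The litter block took the runt and control of the same day and replicate number as littermates, which rests on the numbering alone. The intervals given here come from the fit without litter. Of genes with a symbol 0 passed in limma, and 42 had an unadjusted p under 0.05. For IGFBP2 the runt change was 2.93 and the control change 2.50, a difference of 0.43 with a 95% interval of -0.89 to 1.75. For EPCAM it was 1.25 and 0.87 (difference 0.38, interval -0.34 to 1.10), and for KLRK1 -2.16 and -1.31 (difference -0.85, interval -1.64 to -0.06, limma adjusted p = 1.00). For C2 it was -1.70 and -0.79 (difference -0.91, interval -1.96 to 0.14), and for C4A -2.01 and -0.74 (difference -1.27, interval -2.43 to -0.11, adjusted p = 1.00). For CCND3 it was -1.24 and -0.80 (difference -0.44, interval -0.99 to 0.11). For MASP2 it was -1.51 and -0.08 (difference -1.43, interval -2.42 to -0.44, adjusted p = 1.00), and for CCR1 -1.42 and -0.40 (difference -1.02, interval -1.73 to -0.31, adjusted p = 1.00). C3 and CFB, at -0.21 and -0.01 in runts, changed by 1.28 and 0.82 in controls, differences of -1.49 (interval -2.76 to -0.22) and -0.83 (interval -1.53 to -0.14), each with an adjusted p of 1.00. None of these differences passed the adjustment.

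The 3 genes with the smallest p for the difference in each direction did not pass in runts. NR1I2, the pregnane X receptor that senses drugs and bile acids, had -6.10, -7.07, -6.07 and -5.51 in day 50 runts and -6.67, -6.84, -6.32 and -6.75 in day 37 runts, above background on 0 of 8 arrays. In controls it averaged -3.91 ± 0.67 at day 50, above background on 4 of 4 arrays, and -7.15 ± 0.35 at day 37 (SD, n = 4 each). The runt spots lay at background, so the difference of the changes has no size. Its limma p was 6.24e-05 unadjusted and 0.596 adjusted. ENPEP, an angiotensin-cleaving peptidase, changed by 0.44 in runts and by 2.27 in controls (difference -1.83, interval -2.99 to -0.67, adjusted p = 1.00). LBP, the plasma protein that hands endotoxin to its receptor, changed by -0.27 in runts and by 1.47 in controls (difference -1.74, interval -2.83 to -0.65, adjusted p = 1.00). In the other direction CALCB, a peptide of the calcitonin family, changed by -0.15 in runts and by -1.28 in controls (difference 1.12, interval 0.28 to 1.96). TMEM87A changed by 0.14 and -0.41, and ACAA2, the last enzyme of mitochondrial fatty acid oxidation, by 0.34 and -0.61.

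**Figure D4:**
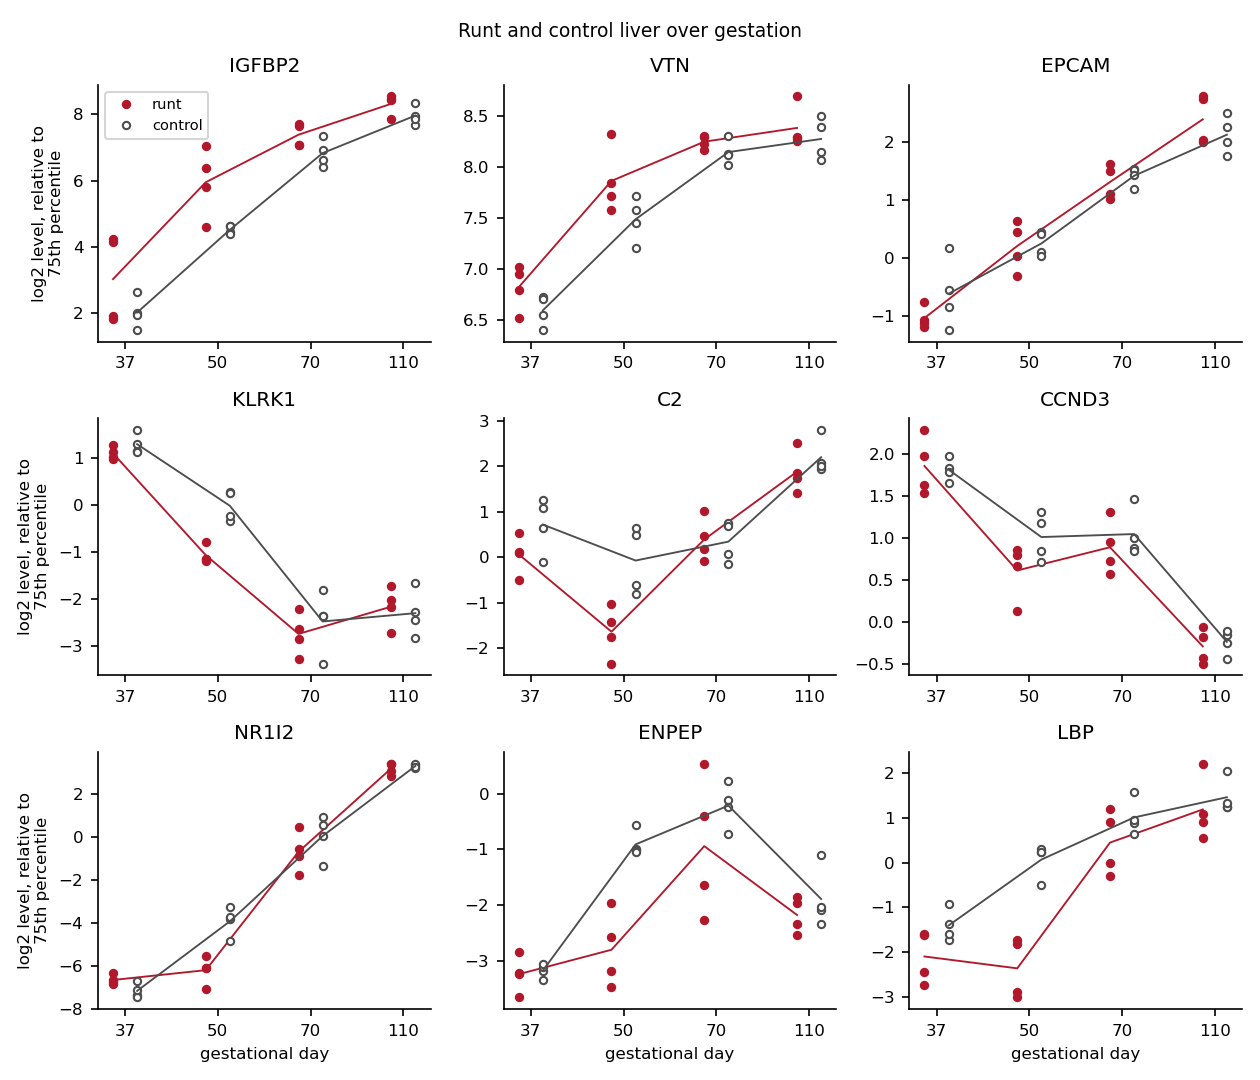
Log2 level relative to the 75th percentile of the array at gestational days 37, 50, 70 and 110 for 9 genes, with each runt (filled) left of each control (open) and lines through the group means. The means of IGFBP2, VTN and EPCAM are higher and those of KLRK1 and CCND3 lower at day 50 than at day 37 in both courses, while NR1I2, ENPEP and LBP are higher in controls than in runts at day 50.

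The later days of the runt course place the day 50 levels. Of the 30 named genes higher at day 50, 23 had a higher mean at day 70 than at day 50, with a median difference of 0.65. Of the 32 lower at day 50, 9 had a lower mean at day 70 than at day 50, 23 a higher one, with a median difference of 0.47. At day 110 the mean was higher than at day 50 for 21 of the 30 and for 18 of the 32. The share over all features was not computed, so these counts are not read as particular to the named genes. The day 50 arrays are shared by the earlier and the later differences, so values chosen as low at day 50 lean towards a later rise. C2 had a mean of -1.64 ± 0.56 in day 50 runts, 0.39 ± 0.47 in day 70 runts and 1.88 ± 0.46 in day 110 runts (SD, n = 4 each). KLRK1 was lower again, with -2.74 ± 0.44 in day 70 runts. NR1I2 was at -0.67 ± 0.92 in day 70 runts and 0.06 ± 1.01 in day 70 controls.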

How the data were processed

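Cy3-labelled liver RNA was hybridised to 1-colour Agilent pig arrays. Per the file headers, the authors' scanner files hold spot intensity from Feature Extraction 10.7.3.1, with local background and spatial trend subtracted in the processed signal. The deposited table of log2 values was used as an alternative. The processed signal was divided by each array's 75th percentile and put on the log2 scale. Probes were kept where well above background on 3 or more of 4 arrays of any group, and 1 probe per symbol, that of highest mean, was read. Of 43603 probes, 2683 matched 1904 symbols through the accession and RefSeq tables, so most probes are unnamed.

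limma 3.58.1 in R 4.3.3 fitted the 8 group means over 32 arrays (24 residual degrees of freedom). The fit was tested on simulated data with independent noise and no slide, scan, position or litter effect, so that test does not bear on such effects. Named genes are the 15 largest rises and falls with no overlap, each list's members that passed or else up to 3 of smallest p, the 3 of smallest p for the difference in each direction, and a fixed panel. IGFBP1, of the panel, was not tested. MYD88, IRF3, MIOX, SLC44A4 and its neighbours, and other list members given as not passing were chosen after their values were seen. "At least" folds set the brighter group's mean against the dim group's mean, with each dim array raised to its lowest signal well above background. The gene lists and the genes in them were chosen with earlier results of these data known. Replicates of a group are fetuses of separate pregnancies, and p-values measure the spread between them. The normexp alternative used median spot and background intensity.

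Replicate numbers do not pair the days. Same-numbered runts of days 50 and 37 had correlations of their deviations of -0.036, -0.075, -0.127 and 0.305.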

Additional observations from a re-analysis of the deposited data

Results flagged for a closer look

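Among the genes named by rule, single arrays lay far from the other 3 of their group. These were 14 of 252 groups of 4, where chance gives 1 in 20 groups, or 12.6. In day 50 runts, replicate 1 was low for TXNRD1 (2.85, against 3.68 to 3.83 in the others) and ACADL (2.52, against 3.2 to 3.23) and high for RPS26 (9.04, against 8.71 to 8.75). Replicate 3 of day 50 was high for KLRK1 (-0.78, against -1.18 to -1.14) and GATA2 (2.78, against 2.24 to 2.30) and low for MYLPF (-5.45, against -4.54 to -4.41). Replicate 2 of day 50 held the widest gap, in APOA4, an apolipoprotein, at 3.72 against -1.09 to -0.32.

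In day 37 runts, replicate 1 was low for ENSSSCT00000001651 (-3.0, against -1.60 to -1.32), SLC7A1 (3.57, against 3.92 to 3.93) and GRB10 (3.86, against 4.04 to 4.07) and high for BF704384 (-3.76, against -5.32 to -5.07). Replicate 2 was high for PEG10 (7.05, against 6.79 to 6.81), replicate 3 low for CD34 (-2.84, against -2.33 to -2.23) and replicate 4 high for ITGB3 (4.63, against 4.14 to 4.20).

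The lone feature that passed the test of runt against control change was CN160809, an expressed sequence tag with no symbol, at -2.73 (limma adjusted p = 0.0153). That value is no measured difference, since the spot was above background on 0 of 8 runt arrays, with -6.72 ± 0.34 at day 50 and -4.94 ± 0.60 at day 37, and averaged -4.05 ± 0.33 at day 50 and -4.99 ± 0.30 at day 37 in controls (SD, n = 4 each).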

How the results depend on the processing

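The count for runts (1672, 85.5% higher at day 50) kept within 1.5 times under quantile normalization, the authors' deposited table, no filter on dim probes, the arrays of the contrast alone and both slide blocks. Array position 1 holds 1 day 50 runt, the array of the second scan, assumed to vary like the other groups, and gave 1507 calls (65.3% higher), of which 628 were shared. It was 4380 with no fold threshold, 690 with probes above background on all 32 arrays, 295 within slides 4 to 9 and 0 within slides 1 to 3 (4390 at an unadjusted p under 0.05 in limma). The 21 calls in the gene lists became 4 within slides 4 to 9, 0 within slides 1 to 3 and 35 with normexp. Leaving out 1 array gave 1277 to 2132 features and 16 to 30 list calls. The count for controls (980) was 2117 with no fold threshold, 80 with normexp, 437 with probes above background on all 32 arrays, 160 within slides 4 to 9 and 0 within slides 1 to 3, and 624 to 1068 without 1 array (624 without control day 37 replicate 2). The difference had 1 call, 2 with no filter, 0 to 2 without 1 array, and 0 under normexp, all 32 arrays, the contrast's arrays, slide as a random block, either set of slides, and without both arrays that stood apart. The replicate numbers do not pair the days, and the replicate block gave 816 runt, 392 control, 12 list and 0 difference calls.

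Normexp gave 1202 runt calls, 43.8% higher, of which 499 were shared with the values reported. The median of all features was then 0.34, and the negative controls lay 1.01 higher at day 50 in runts and 0.03 higher in controls. Changes that turned sign were CD180 0.17, C4A 0.47, CN160809 0.69, CYP8B1 0.70, MASP2 0.35, RLN3 0.61, GNMT 0.27 and COL5A3 0.68. Normexp without the array of the second scan, and the set without both arrays that stood apart, were chosen after seeing the data. That normexp gave 3994 runt calls, 85 list calls and 0 difference calls, with ENSSSCT00000001651 at 0.10, CD180 0.31, C4A 0.60, CN160809 0.82, CYP8B1 0.79, MASP2 0.49, RLN3 0.72, GNMT 0.36, COL5A3 0.78 and CYP7A1 1.11. CYP2C49 was at -0.36 within array position 1. Of 44 named calls 38 passed with quantile normalization, 44 with slide as a random block, 12 within slides 4 to 9, 14 with normexp and 40 without both arrays, where CD180, VTN, VNN1 and DEFB1 missed. The cause of these shifts was not tested. Array position and day cannot be told apart, and dim genes limit the folds.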

Other observations

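The largest changes lay in features with no gene symbol here. BF704384 rose by 3.26 between day 37 and day 50 runts (limma adjusted p = 3.2e-05) and TC427376 was at least 3.04-fold higher at day 50 (adjusted p = 0.00031). NM_214224 fell by 4.77 (adjusted p = 0.00261), and ENSSSCT00000001651 was at least 7.72-fold lower (adjusted p = 3.93e-07), with a change of -5.03 in controls.

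26 genes of the lists passed the adjusted p without reaching 2-fold. They include PROX1, a transcription factor of hepatoblasts (0.67, limma adjusted p = 0.00611), VEGFA, the endothelial growth factor (0.89, 0.0315), ACADM, an enzyme of fatty acid oxidation (-0.65, 0.00623), and PC, pyruvate carboxylase (-0.69, 0.00759).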
